A study of Talaromyces pinophilus with 6 samples.

Results

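The 4 genes described here, TP05147, TP05527, TP03007 and TP00004, are genes of the filamentous fungus *Talaromyces pinophilus* that carry the annotation short-chain dehydrogenase and were lower in the mutant ΔTP05746 than in its parent ΔTpKu70. They are 4 of the 11632 genes listed in any library. They were chosen by their name and by their fall in this same comparison, so their levels are given as a description with no test. RNA-seq libraries were made from mycelium, 3 for each strain, collected 12 h after the fungus had been moved out of glucose and given 1% (w/v) soluble corn starch. ΔTP05746 is a double knockout of TP05746 and TpKu70. ΔTpKu70, derived from strain 1-95, lacks TpKu70 alone, so both strains carry that deletion. TP05746 is annotated as a C6 transcription factor, a class of fungal regulators that bind DNA through a zinc cluster, and TpKu70 belongs to the repair of broken DNA ends, whose loss makes targeted deletions easier to obtain. Which transformant of ΔTP05746 was sequenced is not given in the sources used here. They also do not say if each library had a culture of its own, so the p-values below rest on differences among libraries that may be technical.

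Short-chain dehydrogenases are a large family of oxidoreductases that bind NAD(H) or NADP(H) in a Rossmann fold and use a conserved tyrosine and lysine to move hydride between the cofactor and an alcohol or carbonyl group. Members differ widely in sequence and substrate, which include sugars, polyols, fatty acids, steroids and aromatic compounds, and in fungi many of them act as ketoreductases in the synthesis of secondary metabolites. The annotation names the family only, so the substrates of the 4 proteins are not known from it.

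The libraries held 4091718 to 4190623 expected counts in ΔTP05746 and 4600785 to 4696455 in ΔTpKu70. An expected count is the number of fragments that RSEM assigned to a gene, with decimals where reads could belong to several similar genes. The deleted gene TP05746 was at 0 in all 3 ΔTP05746 libraries, against 135, 42 and 28 counts in ΔTpKu70 replicates 1, 2 and 3, which is at least 33.7-fold lower against a floor of 3 counts per library (19.9-fold without ΔTpKu70 replicate 1). Across genes, ΔTpKu70 replicate 1 stood apart from its group. Its log2 profile correlated with the ΔTP05746 libraries at 0.712 to 0.733, against 0.591 to 0.641 for ΔTpKu70 replicates 2 and 3. Levels below are CPM, each gene's share of the library scaled with TMM factors (counts per 1e6), or the deposited FPKM. FPKM divides by gene length and depth, takes no TMM factor, and allows genes to be ranked within a library. The TMM factors were 1.31 to 1.37 in ΔTP05746 and 0.667 to 0.877 in ΔTpKu70. The median log2 fold change of ΔTP05746 over ΔTpKu70 was 0.03 with the TMM factors and 0.85 with plain library totals. Each change is therefore relative to the scaling used.

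TP05147 was the gene with the highest FPKM in every ΔTpKu70 library. It had 353, 253 and 253 counts in ΔTP05746 replicates 1, 2 and 3, against 189342, 300529 and 394717 counts in ΔTpKu70. In FPKM it reached 66.7, 48.7 and 48.9 in ΔTP05746, where it ranked 1854, 2434 and 2402 within the libraries. In ΔTpKu70 its FPKM was 34451, 54878 and 73650, rank 1 in each. The strains did not overlap, and the lowest ΔTpKu70 library was still far above every ΔTP05746 library. TP05147 averaged 51.9 ± 12.0 CPM in ΔTP05746 and 88129 ± 41054 CPM in ΔTpKu70 (SD, n = 3 each), a log2 fold change of -10.73 and a ratio of means of 1697, which moved between 1307 and 2098 when a library was left out. In a bulk extract, fewer hyphal cells using a gene and less RNA in each such cell cannot be told apart. Even in ΔTP05746 the gene was detected in each library, at 253 counts or more. Its counts hold decimals in 5 of the 6 libraries, so some of its reads were shared with a similar gene model and the level carries that uncertainty.

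TP05527 was the steadiest of the 4 among the ΔTpKu70 libraries. It had 15, 12 and 16 counts in ΔTP05746 and 10044, 7127 and 6661 counts in ΔTpKu70, all whole numbers. In FPKM it was at 3.43, 2.82 and 3.77 in ΔTP05746, where it ranked between 6746 and 7114. In ΔTpKu70 it was at 2229, 1586 and 1515 FPKM and among the most abundant genes, at ranks 33, 61 and 66. It averaged 2.59 ± 0.434 CPM in ΔTP05746 and 2252 ± 190 CPM in ΔTpKu70 (SD, n = 3 each), a log2 fold change of -9.75 and a ratio of 868, between 792 and 921 with a library left out. The highest ΔTpKu70 library was only 1.17 times the lowest in CPM, against 2.76 times for TP05147. The 2 groups lay far apart with little spread in ΔTpKu70.

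TP03007 was not detected in ΔTP05746. It was at 0 in all 3 of those libraries, against 3471, 455 and 551 counts in ΔTpKu70, or 657, 86.4 and 107 FPKM, at ranks 141, 1008 and 837. With a floor of 3 counts per library it was at least 719-fold lower in ΔTP05746. ΔTpKu70 replicate 1 carried much of that value, since its CPM was 6.32 times that of the lowest ΔTpKu70 library. Without it the bound became 290-fold, and without replicate 2 it was 953-fold. The mean in ΔTpKu70 was 389 ± 402 CPM (SD, n = 3), so the spread was as large as the mean. All 3 ΔTpKu70 counts hold decimals, and how many of its reads belong to a similar gene cannot be told from the counts.

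TP00004 does not match the others. It had 14, 6 and 12 counts in ΔTP05746 and 19, 13 and 19 counts in ΔTpKu70, near the lower end of what was tested. The raw counts of the strains overlapped, and so did FPKM, with 2.79, 1.22 and 2.46 in ΔTP05746 and 3.66, 2.51 and 3.75 in ΔTpKu70. The strains were apart only after TMM scaling, with 2.61, 1.05 and 2.17 CPM in ΔTP05746 and 4.67, 3.86 and 6.19 CPM in ΔTpKu70. The means were 1.94 ± 0.804 CPM in ΔTP05746 and 4.91 ± 1.18 CPM in ΔTpKu70 (SD, n = 3 each), and the log2 fold change was -1.33. It passed the fold minimum of 1 in the fit used, but in 13 of 15 alternative settings that gave a value it was no longer called, and with library totals its log2 fold change was -0.50. The description of genes lost with TP05746 was met by TP03007, at 0, and nearly so by TP05147 and TP05527, at traces of their ΔTpKu70 levels. It was not met by TP00004, which was low in both strains.

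**Figure D1:**
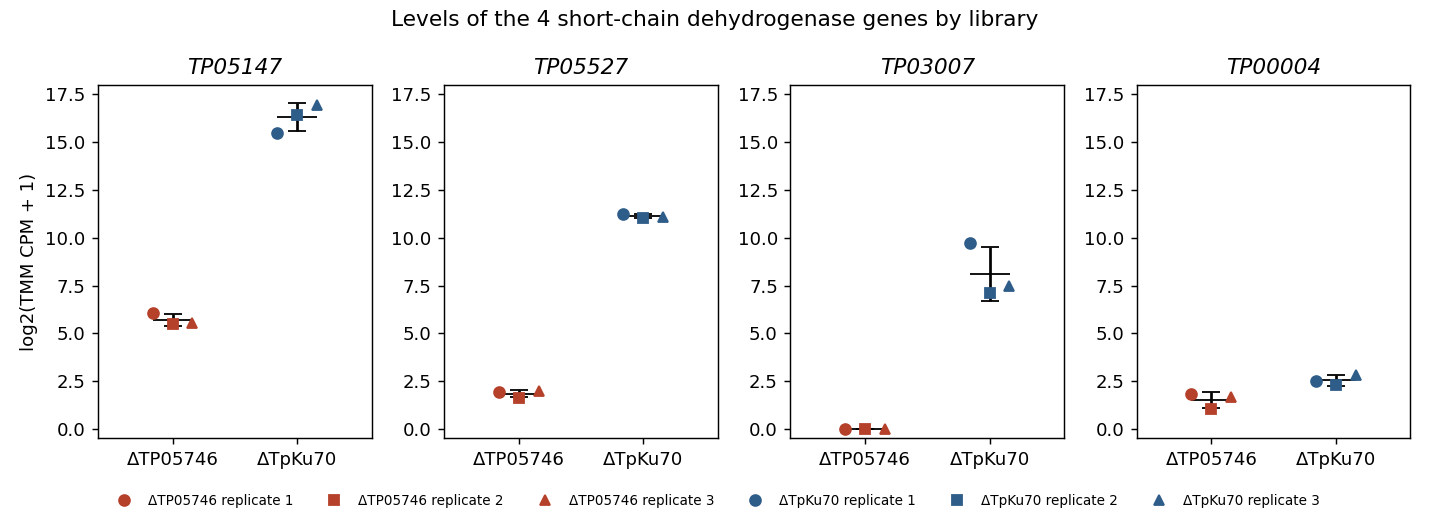
Levels of the 4 genes in each library, as log2(TMM CPM + 1) on the vertical axis, with ΔTP05746 at the left and ΔTpKu70 at the right of each panel. Points are libraries, and the bars show the mean and SD of 3 libraries. TP05147 and TP05527 are far apart between strains, TP03007 is at 0 in all 3 ΔTP05746 libraries, and TP00004 is within a few log2 units of itself in both.

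Of all 8522 genes tested, 98 had a log2 fold change below -9. Ordered from the lowest fitted value, TP03007 was 7th, TP05147 31st, TP05527 68th and TP00004 1665th, with the order of TP03007 depending on how a zero is fitted. All 4 were called lower by edgeR's quasi-likelihood test, with 0.05 as the largest adjusted p and -1 as the highest log2 fold change allowed, where 20.5% of the genes tested were. That count holds by the way the genes were chosen and nothing is read from it. The genes of the annotation nearest to TP00004 in this ordering were TP04450 at -1.39 and TP02867 at -1.27, both also past the threshold. No tested gene of the annotation was short of it. Annotations were at hand only for genes that the study had called on these same libraries, so nothing is read from that.

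Together the 4 genes took 0.00934%, 0.00647% and 0.00675% of the counts in ΔTP05746 and 4.38%, 6.56% and 8.74% in ΔTpKu70. Nearly all of this was TP05147. The other 3 genes took 0.292%, 0.162% and 0.157% of the ΔTpKu70 counts. In ΔTpKu70 the ordering of the libraries was not common to the 4 genes: TP05147 was lowest in replicate 1, TP03007 was highest there, and TP05527 was highest there by a small margin. For TP00004 the replicate with the lowest CPM was 2. So the library that stood apart across genes lay on different sides of its group for these genes, and its part in the values was not tested.

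The profile of each gene over the 6 libraries was compared with those of all tested genes by the Euclidean distance between log2(CPM + 1) profiles, each centred on its own mean. For TP05147 the nearest were TP03603, a hypothetical protein at a distance of 0.607, TP06820 at 0.880 and TP05520 at 0.976. TP03603 had 68, 45 and 30 counts in ΔTP05746, against 24365, 53528 and 63896 in ΔTpKu70, with replicate 1 lowest as for TP05147. For TP05527 the nearest was TP05528, the next gene by number, at 0.601. TP01150, annotated as a membrane transporter, followed at 0.632 and TP09018 at 0.926. For TP03007 the nearest were TP06259 at 0.763, TP06256 at 0.815 and TP06264 at 0.850. TP06259 had 6, 3 and 3 counts in ΔTP05746, against 9852, 862 and 925 counts in ΔTpKu70, so it shared the high replicate 1. For TP00004 the nearest were TP10578 at 0.318, TP10737 at 0.399 and TP08993 at 0.410, whose log2 fold changes lay between -1.24 and -1.08. The distances describe the libraries at hand and say nothing of shared function.

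**Figure D2:**
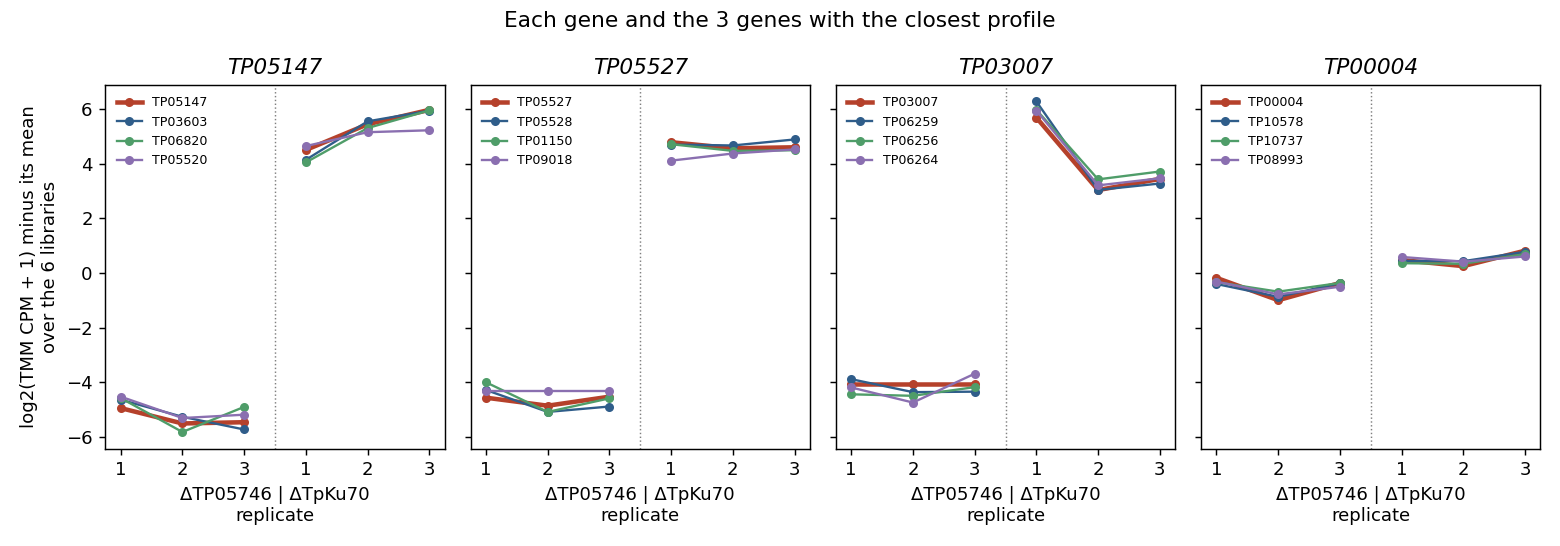
Each of the 4 genes with its 3 nearest genes. The vertical axis is log2(TMM CPM + 1) minus the gene's mean over the 6 libraries, and the horizontal axis gives the 3 ΔTP05746 libraries and then the 3 ΔTpKu70 libraries. The genes nearest to TP03007 share its high ΔTpKu70 replicate 1, and those nearest to TP05147 share a low one.

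The 4 genes were set beside the other short-chain dehydrogenases that could be named from the annotations at hand. The first 1998 rows of the study's table of genes called on these libraries were at hand, and they name 23 genes with this annotation. The highest ID among the 23 was TP05793. Genes of the family in later rows, or not called by the study, are not in this list. Because that table was chosen on the same libraries, the direction of the list is not independent evidence. Of the 23, 22 were listed in a library and 20 were tested. Lower in ΔTP05746 were 18, including the 4 described, and 2 were higher, with a median log2 fold change of -2.56. Of the 1542 tested genes of that table, 46.9% were called lower and 42.3% higher. Without the 4 genes, 14 of 16 were lower and 2 higher, and the median was -2.14. With each library left out in turn 13 to 15 genes of the list were called lower, 15 of them without ΔTpKu70 replicate 1. Scaling by library totals alone left 11, the 7 lost being TP00004, TP00769, TP02867, TP03292, TP04450, TP04485 and TP05568. All 18 kept a negative log2 fold change with library totals. The 19 other genes took 0.0675%, 0.0490% and 0.0496% of the counts in ΔTP05746 and 0.180%, 0.302% and 0.318% in ΔTpKu70, far below the share of TP05147 alone in ΔTpKu70.

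Among the others, the largest falls by edgeR's quasi-likelihood test were in TP04891, at 1.70 ± 0.870 CPM in ΔTP05746 and 272 ± 116 CPM in ΔTpKu70 (log2 fold change -7.30, SE 0.57, adjusted p = 0.000316), and TP02475, at 10.9 ± 4.94 CPM in ΔTP05746 and 1285 ± 830 CPM in ΔTpKu70 (log2 fold change -6.88, adjusted p = 0.00132). TP02504 followed with -6.14 (1.03 ± 0.291 CPM in ΔTP05746 and 74.0 ± 34.2 CPM in ΔTpKu70) and TP01153 with -5.88 (5.58 ± 1.76 CPM in ΔTP05746 and 331 ± 117 CPM in ΔTpKu70). None had a log2 fold change below -9, as TP05147 and TP05527 had. The next 6 lay between -3.63 for TP02604 and -1.50 for TP05568, and the last 4 between -1.39 and -1.11. TP02604 had 142, 14.9 and 84.6 counts in ΔTP05746 and 1253, 302 and 464 counts in ΔTpKu70, and its call was lost without ΔTP05746 replicate 3. Both genes that rose, where 18.2% of all tested genes did, had counts with decimals. TP05250 had 132, 145 and 156 counts in ΔTP05746 and 0 in every ΔTpKu70 library, at least 29.9-fold higher. It reached the FPKM of 1 needed for testing only in the ΔTP05746 libraries, so no p is given for it. TP05793 had 58.9, 74.6 and 75.4 counts in ΔTP05746 and 0, 8.61 and 9.33 counts in ΔTpKu70 (log2 fold change 2.78, SE 0.87, edgeR's quasi-likelihood test, adjusted p = 0.0378). Its call was lost with any ΔTP05746 library or with ΔTpKu70 replicate 2 or 3 left out, and without ΔTpKu70 replicate 1 its log2 fold change was 2.14. All 20 genes had no overlap between strains in CPM. Among all tested genes, 29.9% had every ΔTP05746 library below every ΔTpKu70 library and 32.1% had every one above. The 20 genes came from a table of genes called on these same libraries. Their lack of overlap in CPM largely follows from that choice, and nothing about the family is read from it. In FPKM 15 of the 20 had no overlap, the exceptions being TP00004, TP00769, TP02867, TP04450 and TP05568. The share of all tested genes without overlap in FPKM was not computed, so nothing is read from that count either.

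**Figure D3:**
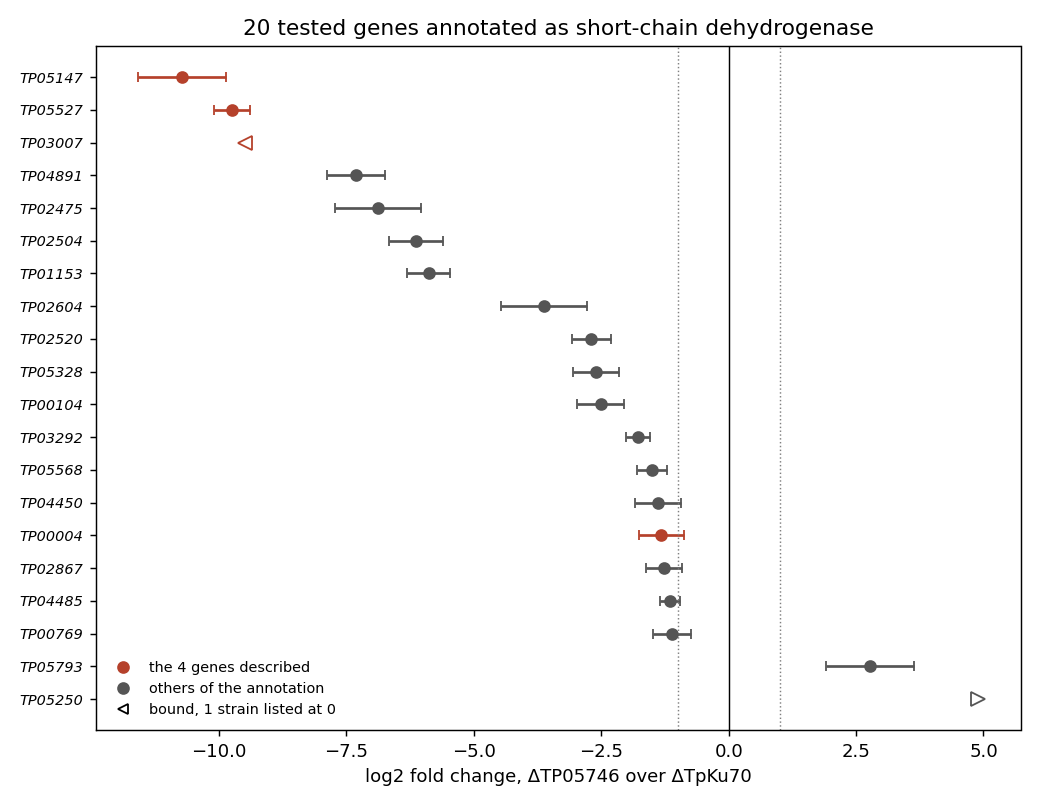
Log2 fold change of ΔTP05746 over ΔTpKu70 on the horizontal axis for the 20 tested genes annotated as short-chain dehydrogenase, ordered from the largest fall at the top. Bars are 1 SE, triangles are lower bounds on the size of a change where a strain was at 0, and dotted lines mark the fold minimum. TP05147, TP05527 and TP03007 lie at the top, with TP00004 at -1.33 among the smallest falls.

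Genes with related names came from the same table, of whose tested genes 46.9% were called lower and 42.3% higher, against 20.5% and 18.2% of all tested genes. The group of epimerase, NmrA-like and ketoreductase names, whose proteins share the Rossmann fold, had 15 annotated and 11 tested genes, with 8 lower, 1 higher and 2 not past the threshold, and a median log2 fold change of -3.73. The lowest were TP03464, an NAD-dependent epimerase/dehydratase at 2.47 ± 0.995 CPM in ΔTP05746 and 903 ± 256 CPM in ΔTpKu70 (log2 fold change -8.50, edgeR's quasi-likelihood test, adjusted p = 0.000186), and TP03442, an NmrA-like protein at -7.95. TP03361, a putative epimerase/dehydratase, rose by 1.65 on the log2 scale, and its call was lost when ΔTP05746 replicate 2 or 3 or ΔTpKu70 replicate 3 was left out. The alcohol dehydrogenase and quinone oxidoreductase group, a family of longer enzymes of which many use zinc, had all 10 tested genes lower, with a median of -2.45. TP04080, an alcohol dehydrogenase, fell by 7.14 on the log2 scale. TP03630, a putative alcohol dehydrogenase, had 0, 1 and 0 counts in ΔTP05746 and 24, 38 and 38 counts in ΔTpKu70, too few in ΔTP05746 for a fold. Only 6 of the 10 genes were lower without ΔTP05746 replicate 3, and 5 were lower with library totals. Both tested aldo-keto reductases, TP02279 at -2.81 and TP05877 at -1.79, were lower, and TP05877 was not called with library totals. As for the short-chain list, that table was chosen on the same libraries.

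The IDs of these genes are numbered, and genes with nearby numbers were taken as numbered neighbours, with 8 numbers to each side. Where they lie on a chromosome was not analysed here. In all, 59 IDs fall in these windows, 51 were listed and 43 were tested, of which 28 were lower, 1 was higher and 14 were not past the threshold (26 to 28 lower with a library left out). Of all tested genes, 20.5% were lower and 18.2% higher. With library totals, 24 neighbours were lower and 4 higher, where 1059 of all 8522 tested genes were lower and 3291 higher. The 4 genes and these neighbours took 0.236%, 0.182% and 0.211% of the counts in ΔTP05746 and 11.8%, 11.1% and 12.4% in ΔTpKu70.

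TP05527 had neighbours with falls of a like size. Of 14 tested neighbours 10 were lower, where 20.5% of all tested genes were. The median log2 fold change of the 14 was -9.47, close to the -9.75 of TP05527 itself. TP05520 had the largest fall at -10.46, with 2.49 ± 1.08 CPM in ΔTP05746 and 3542 ± 722 CPM in ΔTpKu70. TP05529 was at -10.34, with 6.78 ± 2.05 CPM in ΔTP05746 and 8819 ± 402 CPM in ΔTpKu70, and its level varied little between the ΔTpKu70 libraries, as that of TP05527 did. TP05524, TP05528, TP05530, TP05525, TP05522 and TP05523 lay between -9.92 and -9.29, TP05521 at -6.81 and TP05519 at -1.78. Among the annotated ones, TP05522 is a putative monocarboxylate permease, a carrier of small organic acids across the membrane, and TP05523 a putative 2,4-dichlorophenol 6-monooxygenase, a flavin enzyme that hydroxylates phenols in bacteria. TP05526 was not listed in any library. On the far side of TP05530 the tested genes TP05532 to TP05535, among them TP05533, a MAP kinase, were not past the threshold, with values between -0.56 and 0.74. Where a gene was near 0 in ΔTP05746 its fold rested on few counts, and without ΔTP05746 replicate 1 TP05525 was at -11.15, TP05524 at -10.55 and TP05522 at -10.33, while TP05523 was at -10.18 without replicate 2.

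TP03007 also had lower genes on both sides. Of 13 tested neighbours 11 were lower and 1 higher, where 20.5% and 18.2% of all tested genes were, with a median of -6.16. TP03003 was at -8.31, TP03010 at -8.04, TP03002 at -7.68 (-7.09 and -8.40 without ΔTP05746 replicates 2 and 3), TP03004 at -7.59 and TP03009 at -7.29. TP03001, a putative transcriptional regulatory protein, was at -5.40, and TP03013, an NmrA-like protein also counted among the related names, was at -4.37. TP03008, next to TP03007 by number, was at -6.16, with 6.69, 0 and 0 counts in ΔTP05746 and 216, 64.3 and 75.5 counts in ΔTpKu70, so that without ΔTP05746 replicate 1 it was at 0 in that strain. TP03012 at -4.29 and TP03015 at -1.80 were the weakest, and each lost its call when some ΔTP05746 libraries were left out, replicate 1 or 2 for TP03012 and replicate 2 or 3 for TP03015. TP03015 was also not called with library totals, where it was at -1.06, nor with limma. TP03006 was at 0 in all ΔTP05746 libraries and had 17924, 5428 and 2063 counts in ΔTpKu70, so it was at least 4116-fold lower (2108-fold without ΔTpKu70 replicate 1). In all 11 lower neighbours ΔTpKu70 replicate 1 was the highest of its group, as in TP03007, while among the 1749 genes called lower it was highest in 22.2% and lowest in 65.6%. Without that library TP03004 was at -6.78, TP03009 at -6.70, TP03013 at -3.20, TP03012 at -3.22 and TP03015 at -1.21, and all 11 stayed past the threshold. The higher neighbour was TP03005, at 0 in ΔTpKu70 and at least 4.49-fold higher in ΔTP05746. Of the 13 tested, 9 have counts with decimals, so the split of reads between these genes is uncertain.

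Around TP05147 the changes were smaller. Of 11 tested neighbours 6 were lower, where 20.5% of all tested genes were, and 5 were not past the threshold. Their median was -1.21, and none came near the -10.73 of TP05147. TP05150 was at -6.61 (-7.39 without ΔTP05746 replicate 1), TP05139 at -2.63, TP05148 at -2.36, TP05151 at -1.41 and TP05143 at -1.21. TP05142, a glutathione S-transferase of the kind that conjugates glutathione to reactive compounds, had 1, 1 and 0 counts in ΔTP05746 and 8, 7 and 12 counts in ΔTpKu70, and it was called lower. With library totals TP05151 and TP05143 were not called, nor was TP05519 near TP05527. Its 16 numbered neighbours took 0.0287% to 0.0415% of the counts in ΔTP05746 and 0.0399% to 0.0568% in ΔTpKu70, while TP05147 alone took 4.08% to 8.58% in ΔTpKu70. TP00004 had 1 lower gene among 5 tested neighbours, or 20%, near the 20.5% of all tested genes, so nothing is read from it. That gene was TP00007 at -2.58 (-3.47 without ΔTP05746 replicate 1, and not called without replicate 3). The median of the 5 was -0.62.

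**Figure D4:**
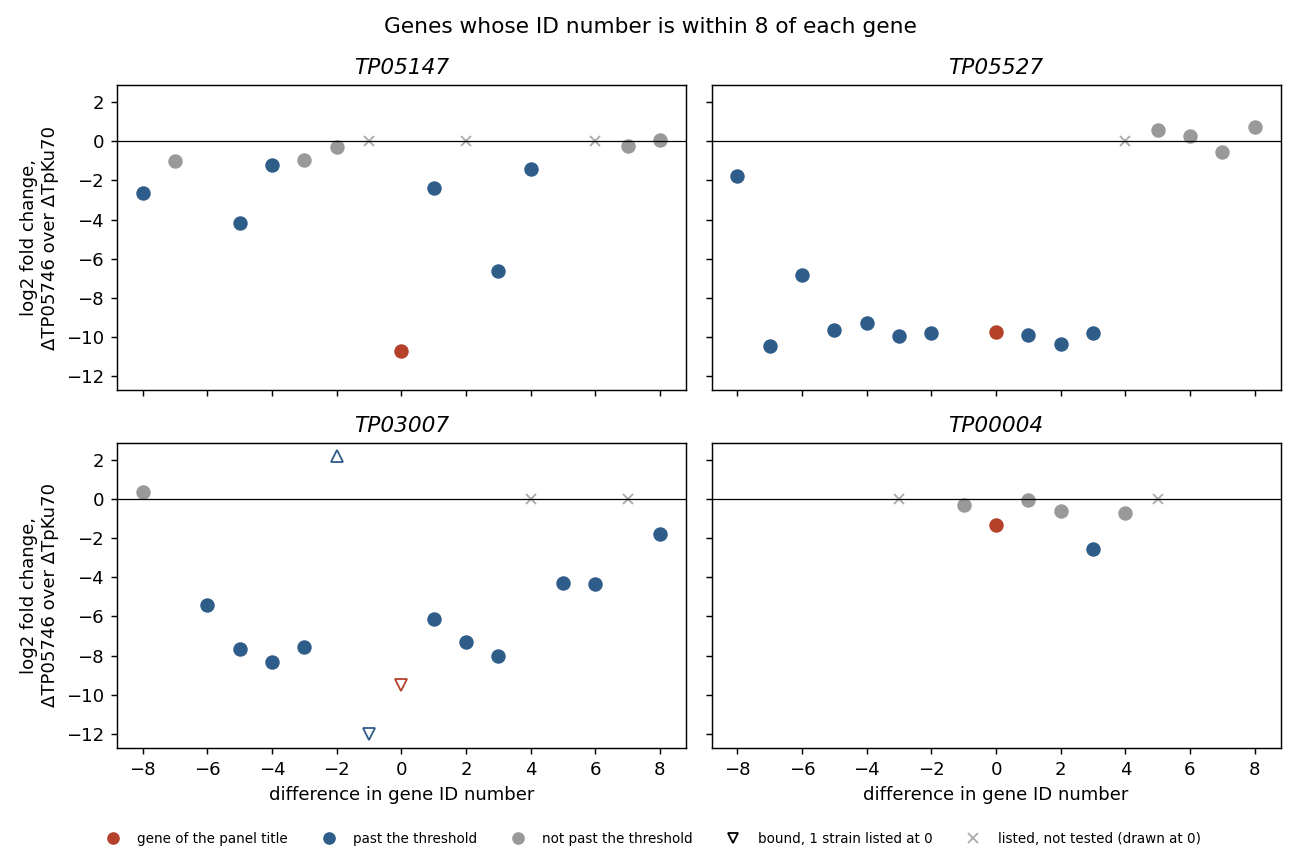
Log2 fold change of ΔTP05746 over ΔTpKu70 for genes whose ID number lies within 8 of each of the 4 genes, on a horizontal axis of the difference in number. Filled circles are tested genes, triangles are bounds and crosses are listed genes that were not tested, drawn at 0. TP05527 sits in a stretch of genes near -10, TP03007 mostly among genes between -12 and -4, and TP05147 and TP00004 mostly beside smaller changes.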

How the data were processed

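RNA-seq was made from mycelium of *T. pinophilus*, with 3 libraries of ΔTP05746 and 3 of ΔTpKu70. The authors' deposited files give expected counts and FPKM from RSEM, and the tools in the submitters' processing notes were RSEM 1.2.12, Bowtie2 2.1.0, BWA 0.7.10-r789 and DESeq2. The deposited FPKM values divide by gene length and depth. Only genes above 0 are listed for a library, and an unlisted gene was read as 0. Expected counts were rounded, and the 8522 genes that reached an FPKM of 1 in 3 or more of the 6 libraries were tested. TMM factors and edgeR's quasi-likelihood test (two-sided, Benjamini-Hochberg over all tested genes, called at adjusted p of at most 0.05 and absolute log2 fold change of at least 1) were used. The SE is the absolute log2 fold change over the square root of F and is rough where a strain is near 0. For a gene at 0 in a strain the fold is a bound, with 3 counts in each library as the floor, and it takes in counting error alone. Of the 11632 genes, 2326 have decimals in a count. The tools were R 4.3.3, edgeR 4.0.16, limma 3.58.1, DESeq2 1.42.0, Python 3.11.15, pandas 2.3.3 and matplotlib 3.10.9. The test was also run on simulated counts with few changed genes and no library that stood apart. That run cannot show how the scaling or ΔTpKu70 replicate 1 affects the calls here.

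The 4 genes and all lists were chosen with earlier results of these data known. Annotations came from the first 1998 rows of the study's table of called genes, of which 1781 IDs were listed here. The genes named are the 4 members and TP05746. They are joined by up to 4 called genes at each end of the family and up to 2 at each end of the related groups, fewer where fewer were called. Called numbered neighbours and the 3 nearest profiles of each of the 4 are named too. Other genes named were chosen after their values were seen. Alternatives were median-ratio factors, library totals, no filter, an FPKM of 5, DESeq2, limma on log2(FPKM + 1) and on log2(FPKM + 0.1), the replicate number as a block, leaving out genes with decimals and leaving out each library. The reference table at hand is for a different strain and shares no ID with the files, so sequences and coordinates are not reported.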

Additional observations from a re-analysis of the deposited data

How the results depend on the processing

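The scaling moved counts of calls and fold sizes. Over all genes 1749 were lower and 1550 higher. With library totals, limma on log2(FPKM + 1), limma on log2(FPKM + 0.1) and library totals without the 4 genes (a setting chosen after seeing the data), there were 1059, 1069, 1107 and 1121 lower and 3291, 3123, 3232 and 3043 higher. In the same order the log2 fold change was -9.84, -9.88, -9.90 and -9.95 for TP05147, -8.94, -8.66, -9.0 and -9.03 for TP05527, and -0.50, -0.47, -0.65 and -0.60 for TP00004. The bound for TP03007 moved more with 1 library, at 719-fold with all and 290-fold without ΔTpKu70 replicate 1. The alcohol dehydrogenase group had 5 lower genes in each of these 4 settings, and 6 to 9 with a library left out. The aldo-keto reductases had 1 lower with library totals and with limma on log2(FPKM + 1). The short-chain list had 11 lower genes with library totals. Its 2 higher genes became 1 with the replicate block, 1 to 2 with a library left out, and 0 in edgeR's test of the genes without decimals, where both were left out. TP05147, TP05527 and TP03007 were called in every alternative that gave a value, and TP00004 in 2 of 15. Of the 52 other genes that the naming rule gave, 40 kept their call in all alternatives that gave a value and 12 lost it in some. Of the 10 further lower genes of the short-chain list, 7 lost it in some, and no sign reversed in either set.

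For pairing by replicate number, each library's log2 profile was taken as deviations from its strain mean. These deviations correlated at -0.0784, -0.0379 and 0.0115 between libraries with the same number. Between libraries with different numbers the correlations lay between -0.0896 and 0.0876, so no pairing by number was seen. With the number as a block, 1512 genes were lower and 1380 higher. Counts near the floor limit TP00004, and decimals limit TP05147 and TP03007.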

Other observations

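Among genes tested in order of number, TP05519 to TP05530 held 11 genes called lower in a row, 10 of them below -5 on the log2 scale, with TP05527 inside the stretch. TP03006 to TP03015 held 8 such genes around TP03007, TP05147 to TP05151 held 4, and TP00004 stood alone. The first stretch took 0.0140%, 0.0117% and 0.0120% of the counts in ΔTP05746 and 2.70%, 2.26% and 2.16% in ΔTpKu70. The second took 0.0178%, 0.0113% and 0.0151% of the counts in ΔTP05746 and 2.02%, 0.741% and 0.374% in ΔTpKu70. These stretches were defined after the values were seen, and untested genes inside them were skipped. Each was extended until a tested gene was not called lower, so all its tested genes are lower by construction. Of all tested genes, 20.5% were called lower, and nothing is read from the lengths. The stretch around TP03007 ended at TP03005, which was higher, although TP03001 to TP03004 were also lower.

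A few genes of the annotation gave no test. TP04825 had 0 counts in all 3 ΔTP05746 libraries and 2, 29 and 16 counts in ΔTpKu70, and TP01861 had 0, 0 and 1.72 counts in ΔTP05746 and 0 in all 3 ΔTpKu70 libraries. TP03365 was not listed in any library.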
